A study of Mus musculus with 2 samples.

Results

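Rgs16 and 8 other genes were followed on 2 microarray chips hybridised with RNA of activated mouse CD4+ T cells. All but Gem code for regulators or subunits of heterotrimeric G-protein signalling. The genes were the RGS genes Rgs16, Rgs1 and Rgs2, the small GTPase gene Gem, the alpha subunit genes Gnai2, Gnai3 and Gnas, and the beta subunit genes Gnb1 and Gnb2. A probe set was taken when the platform annotation gave it the symbol of a member, which held for 13 of 13179 probe sets, 8 on the chip called subA and 5 on the chip called subB. These 13 covered 8 of the 9 genes. Rgs1, which codes for a regulator abundant in activated lymphocytes, had no probe set under its symbol and is not analysed here. The genes were chosen by their role and by their deposited folds and calls on these same arrays, so the values below are a description, with no test.

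CD4+ T cells had been purified out of the spleen and lymph nodes of female B10.PL mice. The transgenic T-cell receptor of these mice recognises Ac1-11, a peptide of myelin basic protein. The sample titles give 48 h and the letters TCL, whose meaning was not settled here. The series is titled as a comparison of 4Y, a stimulus that the labels do not describe, with Ac1-11. Each chip has 1 array whose levels were deposited and 1 baseline array known only through the authors' comparison, so each condition is 1 array, no p-value could be had, and precision is limited by this number of arrays. Pooling of animals is not stated. The levels deposited under the label Ac1-11 were identical to those of the array that the authors' deposited table names 4Y, at all 6584 probe sets of subA and all 6595 of subB. Which array held which stimulus was therefore not settled, and the arrays are called the deposited array and the baseline array.

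Heterotrimeric G proteins pass signals from receptors in the membrane, among them the chemokine receptors that steer T cells, to enzymes inside the cell. The alpha subunit binds GTP when a receptor is engaged and parts from the beta and gamma subunits, and both parts of the complex then act on effectors. RGS proteins shorten the signal by speeding up the hydrolysis of GTP on the alpha subunit, and several RGS genes are induced when lymphocytes are activated. Gem belongs to a separate family of small GTPases and was found as a gene induced by mitogens in human T cells.

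The stretches before the transcription starts of Rgs16 and Rgs2 are shown because these are the RGS genes among the members that the chips measured. RefSeq's promoter table held 6 of the 9 members. The windows are the 250 bases before the start in that table, of build GRCm38.p6, in the direction of the gene, for Rgs16 chr1:153740103-153740352 on the plus strand and for Rgs2 chr1:144004150-144004399 on the minus strand. Capitals mark matches on either strand to CCAAT, the letters of a CCAAT box, and to GGGCGG, those of a GC box.
Rgs16: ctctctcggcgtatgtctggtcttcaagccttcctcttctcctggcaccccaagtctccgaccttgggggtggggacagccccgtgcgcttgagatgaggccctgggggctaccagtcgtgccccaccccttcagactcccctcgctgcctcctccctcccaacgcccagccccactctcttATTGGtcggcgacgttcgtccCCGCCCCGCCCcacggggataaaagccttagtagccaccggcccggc
Rgs2: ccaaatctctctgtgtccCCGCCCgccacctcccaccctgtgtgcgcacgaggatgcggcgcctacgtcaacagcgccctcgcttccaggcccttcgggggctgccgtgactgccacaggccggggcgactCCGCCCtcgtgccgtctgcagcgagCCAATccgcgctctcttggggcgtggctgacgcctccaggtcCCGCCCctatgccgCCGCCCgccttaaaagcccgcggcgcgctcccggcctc
Rgs16 held 1 CCAAT match, whose first base lay 68 bases before the start, and 2 overlapping GC-box matches at 47 and 42 bases. Rgs2 held 1 CCAAT match at 94 bases and 4 GC-box matches between 232 and 38 bases before the start. Of 32851 windows in the table, 33.8% held CCAAT and 32.7% held GGGCGG on either strand. The TATA box letters TATAAA had 0 matches in both windows and stood in 12.4% of all windows. GGAAA, the core of an NFAT site, also had 0 matches in both and stood in 55.6% of all windows. The AP-1 site TGANTCA, with 0 matches in both, stood in 6.75%. TGACG, a CRE half-site, had 2 matches in Rgs2, at 185 and 67 bases, and 0 in Rgs16, against 17.8% of all windows. G or C made up 66.4% of the Rgs16 window and 72.4% of the Rgs2 window, with a median of 52.4% over all windows. These matches describe letters in a window and are not evidence of a bound site.

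A level is the authors' average difference, the mean of perfect match minus mismatch brightness over a probe set's probe pairs, and the baseline level is the deposited level minus the deposited change. A probe set counted as detected when it was called present on the deposited array or its baseline was not marked absent. It counted as changed when it was detected and the authors' deposited table gave it a fold of at least 2 either way with a difference call of increase or decrease. By this rule 149 probe sets changed among the 3343 detected on subA (4.46%), with 59 higher (1.76%) and 90 lower (2.69%) on the deposited array. On subB 113 changed among 1813 (6.23%), with 77 higher (4.25%) and 36 lower (1.99%). Of the members, 2 of the 7 detected on subA counted as changed, Rgs16 and Gem, both lower on the deposited array. On subB 1 of 4 did, Rgs16, which was higher. Rgs16 counted as detected there only through its presence call on the deposited array, as its baseline was marked absent. The detected members had a median log2 fold of -0.14 on subA and -0.20 on subB, and all detected probe sets one of 0 on each chip. Where a gene had 2 detected probe sets, their log2 folds differed with an SD per probe set of 0.46 across 251 genes of subA and 0.62 across 51 genes of subB, the nearest these files come to an error.

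Rgs16 codes for an RGS protein that acts on alpha subunits of the inhibitory and Gq classes. On subA the probe set u94828_s_at had a level of 1871 average difference units on the deposited array, against 12826 on the baseline array. The authors' deposited table gave it a fold of 6.9 lower with a call of decrease, and all 20 of its 20 probe pairs were scored as decreased. That table held 4 detected probe sets on subA with at least 20 decreased pairs, of 3343. On this chip 24 detected probe sets had a lower log2 fold than the -2.79 of Rgs16. The members were chosen by their folds and calls on these arrays. Such ranks, here and below, therefore only describe them.

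On subB another Rgs16 probe set had a level of 8221 on the deposited array, against 629 on the baseline array. The deposited array was thus the lower one for Rgs16 on subA and the higher one on subB. In the authors' deposited table the subB fold was 5.6 higher with a call of increase, and 15 of 20 probe pairs were scored as increased and 0 as decreased. At least 15 increased pairs were found in 15 of 1813 detected probe sets on subB (0.827%), and 17 had a log2 fold above the 2.49 of Rgs16. The subB baseline was marked absent, so the level it is set against was not told from background. The ratio of the levels was 13.1, well above the 5.6 of the authors' deposited table. That table's fold and change together correspond to a level of 9242 on the deposited array, against 1650 on the baseline array. On subA the same calculation gave 1857 and 12812, close to the levels above.

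**Figure D1:**
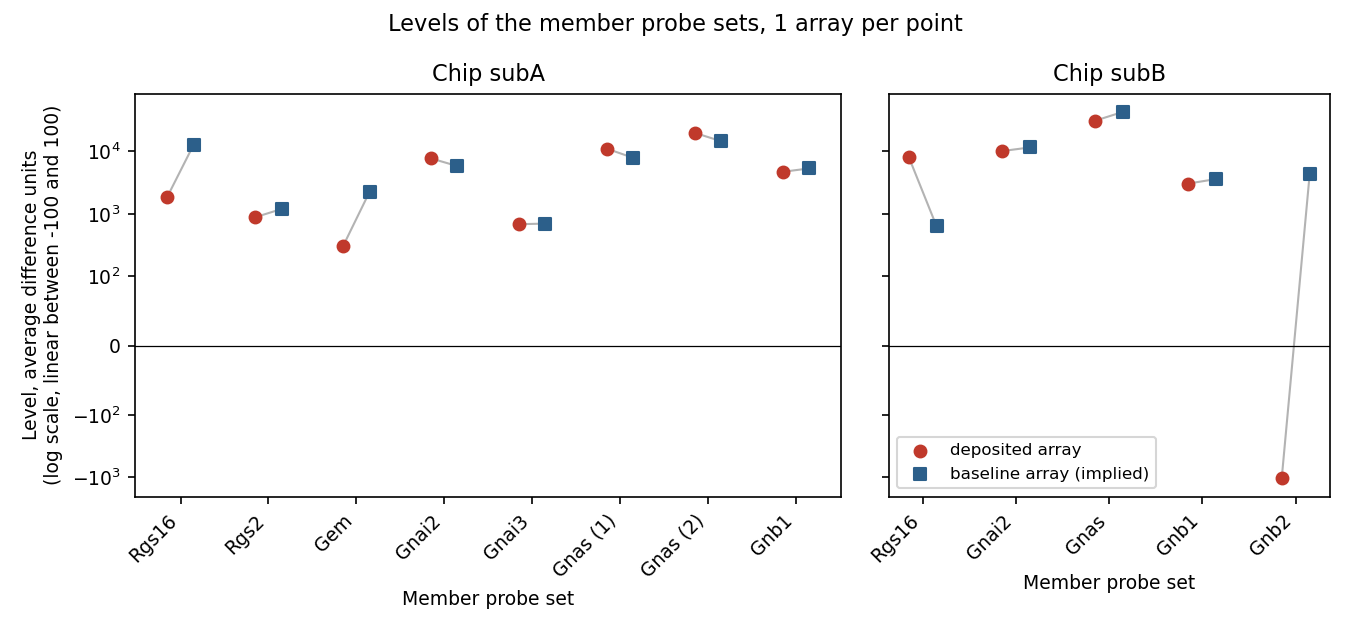
Levels of the 8 member probe sets on subA and 5 on subB in average difference units, on a scale that is logarithmic beyond 100 and linear below. Each circle is the deposited array and each square the baseline array, with 1 array per point. Rgs16 lies at 1871 against 12826 on subA and at 8221 against 629 on subB, while the points of Gnai2, Gnai3, Gnas and Gnb1 lie close together.

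Opposite directions were also common among other genes detected on both chips. Across the 141 genes detected on both chips the Spearman correlation between the chips' log2 folds was -0.45, and it was -0.44 over the 137 that are no members. Signs were opposite for 78 of the 141 and the same for 40, and the others had a fold of 1.0 on a chip. This is a description across genes, which are not independent replicates and share the same arrays. The top 5% of detected probe sets by level also ran in opposite directions, with median log2 folds of 0.38 on subA and -0.26 on subB. The part of level in the correlation was not tested. The authors' deposited table called 10 genes increased or decreased on both chips, and all 10, Rgs16 among them, had opposite directions. Turning the sign of subB, which amounts to exchanging the roles of its arrays, would give Rgs16 log2 folds of -2.79 on subA and -2.49 on subB. The subB levels themselves stay as given above, higher on the deposited array. Ccl4, a chemokine gene, Serpinb9, which codes for an inhibitor of granzyme B, and Il10, a cytokine gene, had the pairs of log2 folds nearest to that of Rgs16, at distances of 0.81, 1.11 and 1.71 over 2 chips. Their log2 folds were -2.83, -2.17 and -1.43 on subA and 3.29, 3.41 (marked as approximate) and 1.43 on subB. The probe set of Ccl4 and that of Il10 on subB carry no symbol in the annotation of subB and were named through the same probe set ID on subA.

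**Figure D2:**
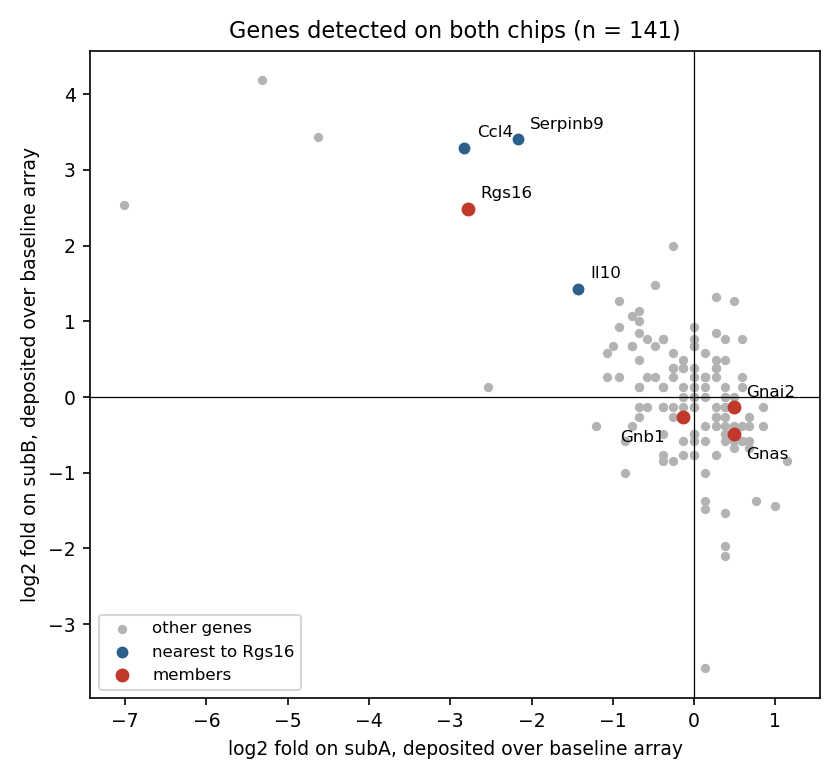
log2 folds of the 141 genes detected on both chips, deposited over baseline array, with subA on the horizontal axis and subB on the vertical axis. Rgs16 lies at the upper left, at -2.79 and 2.49, with Ccl4, Serpinb9 and Il10 nearest to it, while Gnai2, Gnas and Gnb1 lie near the origin.

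Rgs2, whose protein acts preferentially on Gq alpha subunits, was measured on subA. Its probe set U67187_s_at had a level of 880 on the deposited array, against 1192 on the baseline array, and the deposited level was called absent. The authors' deposited table gave a call of decrease with a fold of 1.9 lower, so Rgs2 fell short of the fold of 2 and did not count as changed. Of its 20 probe pairs 10 were scored as decreased and 1 as increased in that table, and 90 of 3343 detected probe sets (2.69%) had at least 10 decreased pairs. The ratio of baseline to deposited level was 1.35, smaller than the deposited fold. The fold and change of the authors' deposited table together correspond to 347 on the deposited array, against 659 on the baseline array. Its distance from the fold threshold is thus smaller than the gap between these ways of reading the same table.

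Gem, which codes for a small GTPase that binds calcium channel beta subunits and restrains calcium entry, was also measured on subA. Its probe set u10551_s_at had a level of 305 on the deposited array, against 2233 on the baseline array, and had a presence call there. The authors' deposited table gave it a fold of 7.3 lower with a call of decrease, and 16 of 20 probe pairs were scored as decreased and 0 as increased. At least 16 decreased pairs were found in 23 of 3343 detected probe sets on subA (0.688%), and 18 had a lower log2 fold than the -2.87 of Gem. Gem and Rgs16 therefore lay close together in fold on this chip. subB had no probe set under the symbol Gem.

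**Figure D3:**
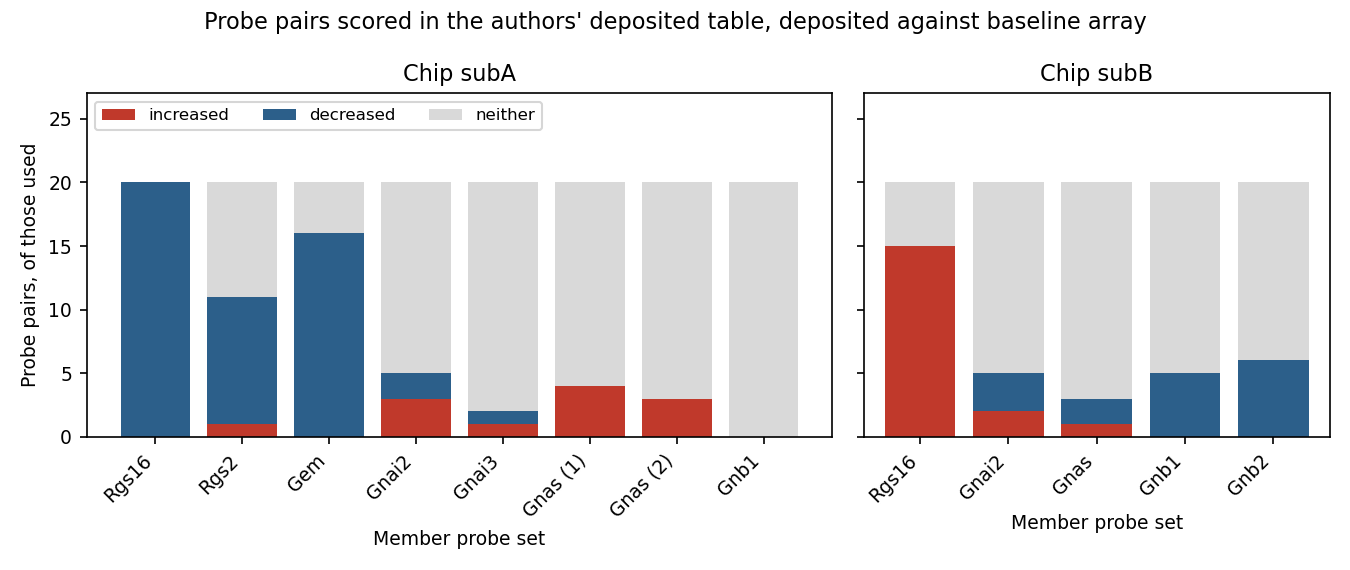
Probe pairs scored as increased, decreased or neither in the authors' deposited table, deposited against baseline array, for each member probe set, of 20 pairs each. Rgs16 has 20 decreased pairs on subA and 15 increased pairs on subB, Gem has 16 decreased pairs, and no probe set of a G-protein subunit has more than 6 pairs scored in either direction.

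Among the alpha subunits, Gnai2, which codes for the inhibitory alpha subunit that chemokine receptors of lymphocytes chiefly use, had a probe set on each chip and counted as changed on neither. On subA its level was 7701 on the deposited array, against 5805 on the baseline array, and on subB 10093 on the deposited array, against 11548 on the baseline array. The authors' deposited table gave folds of 1.4 higher on subA and 1.1 lower on subB, both without a difference call. Its probe pairs were scored there as 3 increased and 2 decreased on subA, and as 2 increased and 3 decreased on subB. Gnai3, which codes for a related inhibitory alpha subunit, read 680 on the deposited subA array, against 696 on the baseline array. The authors' deposited table gave it a fold of 1.0, with 1 pair increased and 1 decreased.

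Gnas codes for the stimulatory alpha subunit that activates adenylyl cyclase. On subA its probe set m13964_f_at had a level of 19773 on the deposited array, against 14533 on the baseline array, and C80321_rc_f_at one of 11027 on the deposited array, against 7869 on the baseline array. On subB the Gnas probe set had a level of 30974 on the deposited array, against 42966 on the baseline array. In the authors' deposited table both subA folds were 1.4 higher and the subB fold was 1.4 lower, all without a difference call. These small folds had the same direction as the median of bright probe sets on each chip. The part of level or scaling in the Gnas folds was not tested. On subA the top 5% of detected probe sets by level had a median log2 fold of 0.38, and on subB -0.26. With the running median over 300 probe sets of like level removed, the log2 fold of Gnas was 0.11 for m13964_f_at and 0.35 for C80321_rc_f_at, against 0.49 as deposited for both, and stood at -0.22 on subB, against -0.49 as deposited. Of the bacterial spike-in controls on subA, 6 probe sets were called present, with folds of 1.5 to 2.1 higher in the authors' deposited table. On subB 5 were called present, with folds between 1.1 lower and 1.3 higher and a median log2 fold of 0.

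The beta subunits form the other arm of the complex. Gnb1 read 4699 on the deposited subA array, against 5322 on the baseline array, and 3051 on the deposited subB array, against 3604 on the baseline array. The authors' deposited table gave folds of 1.1 and 1.2 lower, without a difference call, and scored 0 of 20 pairs as changed on subA and 5 as decreased on subB. It was the member measured on both chips whose folds had the same sign on each. Gnai2, Gnas, Gnb1 and Gnb2 were read by probe sets whose IDs carry the suffix _f. Affymetrix gives it to probe sets that may match several members of a gene family, so signal from related subunits cannot be told apart. The probe sets of Rgs16, Rgs2, Gem and Gnai3 carry the suffix _s, and whether they match other transcripts was not checked.

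Gnb2, on subB, had the most extreme deposited fold of any member and yet no difference call. Its level was -1039 on the deposited array, called absent, against 4348 on the baseline array, which was also marked absent. It was therefore not detected and did not count as changed. The authors' deposited table gave a fold of 10.5 lower, not marked as approximate, with 6 of 20 pairs decreased and 0 increased. Of the 1813 detected probe sets on subB, 181 (9.98%) had at least 6 decreased pairs, and 2 had a lower log2 fold than the -3.39 of Gnb2. Gnb2 thus had fewer scored pairs than Rgs16 on the same chip, with the scored pairs of each all in a single direction.

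**Figure D4:**
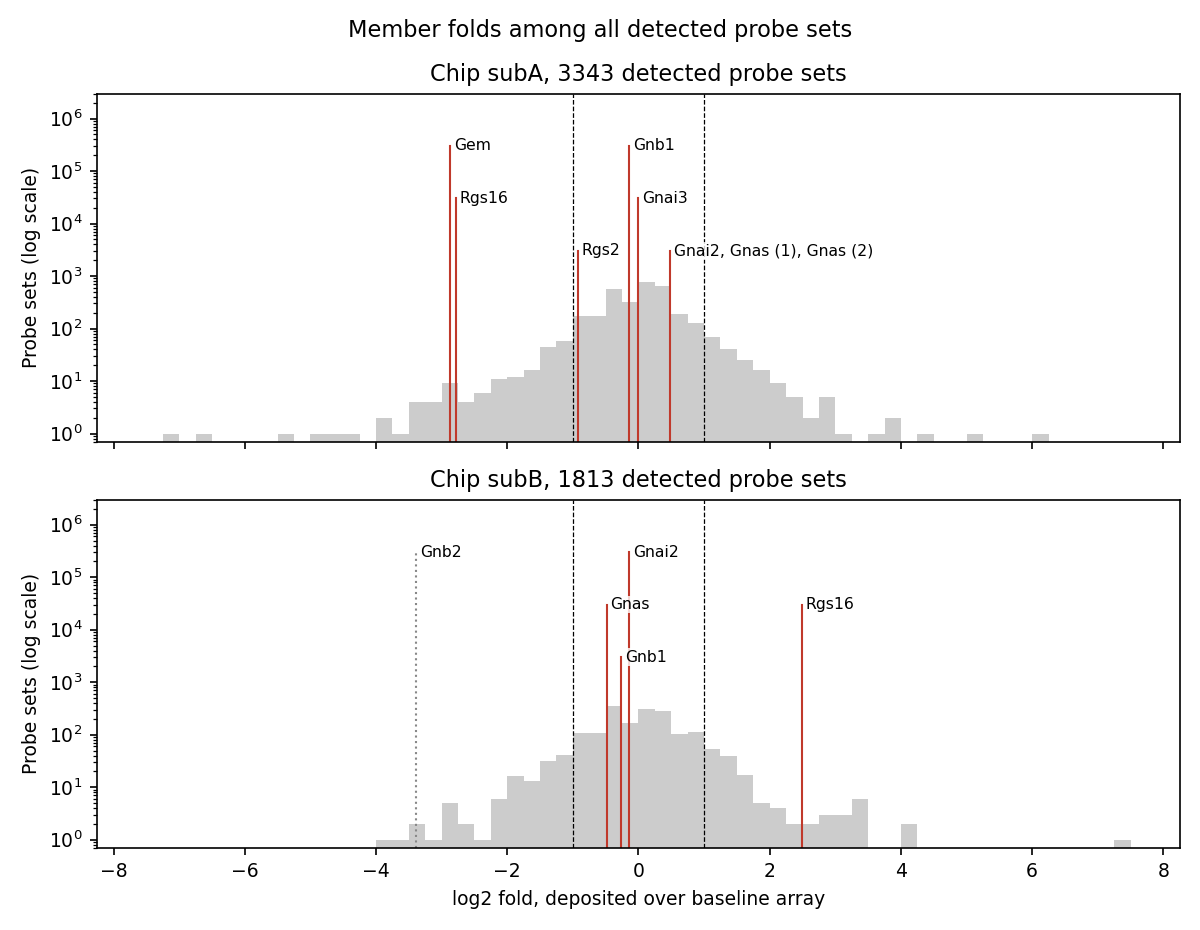
log2 folds of all detected probe sets on subA (3343) and subB (1813), deposited over baseline array, as grey bars on a log scale, with the member probe sets as lines whose height has no meaning. Dashed lines mark a fold of 2 either way and the dotted line marks Gnb2, which was not detected. Gem and Rgs16 lie in the lower tail on subA and Rgs16 in the upper tail on subB.

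Lists of 125 other symbols of the pathway gave 25 detected genes on subA, of which 2 counted as changed. On subB they gave 4, of which 1 did. By the same rule 4.46% of all detected probe sets changed on subA and 6.23% on subB. The median log2 fold of the detected listed genes was -0.14 on subA and -0.06 on subB, against 0 for all detected probe sets on each chip. Of the other RGS genes 3 were detected on subA and 0 counted: Rgs14, a regulator of inhibitory alpha subunits, Axin1, a Wnt pathway scaffold with an RGS domain, and Rgs5 were given folds of 1.0, 1.5 higher and 1.3 lower by the authors' deposited table. Rgs3 was not detected on subB. Neither chip named a relative of Gem from the list.

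Of 9 other alpha subunit genes on subA, 2 were detected and 1 counted as higher, Gna15, an alpha subunit of the Gq class found in blood cells. Its probe set m80632_g_at had a level of 1514 on the deposited array, against 497 on the baseline array, which was marked absent. The authors' deposited table gave it a fold of 3.0 higher, with 8 of 20 pairs increased and 0 decreased. The other Gna15 probe set, m80632_at, was not detected, with 1009 on the deposited array, against 910 on the baseline array. Gna13, another alpha subunit gene, was 1.2-fold higher without a difference call in the authors' deposited table. On subB the 1 gene that counted was Gnao1, an alpha subunit best known from neurons, with 476 on the deposited array, against 20 on the baseline array. Its fold of 2.1 higher in the authors' deposited table was marked as approximate, with 5 of 12 pairs increased, and its baseline was marked absent. The other Gnao1 probe set on that chip was not detected and had an approximate fold of 1.9 lower in that table.

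Of the beta and gamma subunits on the list, Gng11 and Gnb5 were detected on subA and neither counted. In the authors' deposited table the brighter Gng11 probe set was 1.1-fold lower and the dimmer 1.8-fold higher with a call of increase, and Gnb5 was 1.2-fold higher. Of 6 effector genes detected on subA 0 counted. Prkar1a, a regulatory subunit of the cAMP-dependent kinase, was 1.3-fold higher there, and Adcy7, an adenylyl cyclase, 1.1-fold higher by the brighter of its probe sets and 1.1-fold lower by the dimmer, in the authors' deposited table. Arhgef1, whose protein has an RGS-like domain, was 1.1-fold higher in that table. Prkacb, a catalytic subunit of the kinase, was the 1 effector gene detected on subB, at 1.2-fold lower. Arrb1, an arrestin, was the 1 gene of the receptor kinases and arrestins with a probe set, and it was not detected.

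Among the receptors on the list, 12 were detected on subA and 1 counted as lower, Ccr7, the receptor for homing to lymph nodes. It had a level of 842 on the deposited array, against 1671 on the baseline array, with a fold of 2.3 lower and 11 of 20 pairs decreased in the authors' deposited table. In all, 9 of the 12 had folds below 1 and the list's median log2 fold was -0.26. Over all detected probe sets on subA, 1421 of 3343 had a fold below 1. Of those 9 receptors, Ccr7 alone had a difference call. F2r, a thrombin receptor, was 1.3-fold lower and Ccr2 1.2-fold lower, both without a difference call, in the authors' deposited table. Cxcr4, the receptor for CXCL12, was 1.3-fold higher on subA and lower by an approximate 4.3-fold on subB in that table, without a difference call on either chip. Ccr1 was 1.1-fold higher on subB.

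Markers of T cells were detected at all 3 probe sets of subA and all 4 of subB. Their summed level was 16000 on the deposited subA array, against 13512 on the baseline array, and 89862 on the deposited subB array, against 124676 on the baseline array. On subB the authors' deposited table called Cd3d, Cd4 and Cd3g decreased, with folds of 1.8, 1.4 and 2.1 lower. Thy1 was 1.2-fold lower there without a difference call. On subA that table called Cd28 decreased, at 1.6-fold lower. Cd3e was 1.4-fold higher and Cd5 1.1-fold higher on that chip, both without a difference call. Klrb1c, of natural killer cells, and Cd8a were not detected on the chip that named them. Of the B cell markers 1 of 3 genes was detected on subA (Cd79b, called absent on the deposited array) and 0 of 2 on subB. Their summed levels include probe sets not detected and negative levels. The sums were 839 on the deposited subA array, against 2364 on the baseline array, and -886 on the deposited subB array, against -1163 on the baseline array. Cd79b itself read 471 on the deposited subA array, against 772 on the baseline array. Of the myeloid markers Lyz2 was detected on subA, at 5294 on the deposited array, against 2286 on the baseline array. The authors' deposited table gave Lyz2 a fold of 6.2 higher without a difference call, with 7 of 20 pairs increased and 1 decreased. On subB 1 of 4 was detected, Cd14, at 1720 on the deposited array, against 2809 on the baseline array. The list's summed level, which again includes probe sets not detected and negative levels, was 34 on the deposited array, against 1722 on the baseline array. The part of these markers in the values of Rgs16 and Gem was not tested. In RNA from a mixed sample, fewer cells of a type and less RNA per cell cannot be told apart.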

How the data were processed

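RNA of CD4+ T cells was read on both chips of the Affymetrix Mu11k set, 1 array per chip and condition. The levels are intensity values deposited by the authors, in average difference units, and the authors also deposited, for each probe set, how many probe pairs increased or decreased. Per the file headers, the comparison columns (signed fold, change, calls and a log average ratio score) have the names of Affymetrix 2-array output. Software version and scaling are not given in the sources used here. The other columns, such as calls and folds, were used as deposited. The baseline level was computed as level minus change, and folds were turned into signed log2 values.

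Names came from the platform annotation. For the comparison of genes detected on both chips only, any probe set unnamed on subB took the symbol of the same probe set ID on subA. A lookup of its Entrez IDs among the RefSeq genes (GRCm38.p6) altered 0 symbols. On subA 5560 probe sets had 1 symbol, 197 several and 827 none, and on subB 2001, 27 and 4567. No probe set with several symbols was used. Controls, 55 per chip, never counted as detected. Columns of other samples numbered 0. A gene with several detected probe sets was counted by that with the highest mean of both levels. A level and baseline were also solved from the deposited change and fold.

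The members, the pathway lists and the cell markers were chosen with earlier results of these data known. The text names all member probe sets, pathway genes that counted as changed or, up to 3 per list, had the highest level, and the 3 genes nearest to Rgs16 in the plane of both chips' log2 folds. As no condition had a replicate, no test was made. The alternatives tried were a lower and a higher fold threshold, other uses of the calls, no detection filter, centring, ratios of floored levels, and the median over probe sets. Removal of a running median over level and turning the sign of subB were added after the data were seen. Python 3.11.15 was used, together with NumPy 2.4.6, pandas 2.3.3, matplotlib 3.10.9 and SciPy 1.17.1.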

Additional observations from a re-analysis of the deposited data

Results flagged for a closer look

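Members measured on both chips had log2 folds of opposite sign on subA and subB for Rgs16 (-2.79 on subA and 2.49 on subB), Gnai2 (0.49 and -0.14) and Gnas (0.49 and -0.49). With 1 comparison per chip, the difference between the chips was not tested. The values of Gnai2 and Gnas had no difference call on either chip.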

How the results depend on the processing

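The count of changed members stayed at 2 on subA (Rgs16 and Gem, both lower) under every alternative except a fold of at least 1.5, which added Rgs2 and gave 3. On subB it stayed at 1 (Rgs16, higher) under every alternative. With the sign turned the count was still 1, as only the direction of the fold is exchanged. Turning the sign of subB turned all 5 member folds there by construction and gave Rgs16 a log2 fold of -2.49. The count of other pathway genes on subA was 2, and became 1 with a fold of at least 3, 5 with no difference call required, and 1 with ratios of levels floored at 100 or at 400. On subB it was 1, and became 0 with a fold of at least 3 and 2 with no difference call required. It was 0 with levels floored at 400, and 0 with the running median over level removed. Shares of all detected probe sets under these alternatives are not given, so the counts cannot be set against them. Of 59 other alternative log2 folds of single members, 54 moved by less than the SD between probe sets of a gene and 5 moved by more. Many of the 54 could not move. Centring changed nothing, as the median of detected probe sets was 0 on each chip. The median over probe sets is the same value for a gene with 1 probe set. From floored levels Rgs16 on subB had a log2 fold of 3.71, against 2.49 as deposited, and Rgs2 on subA one of -0.44, against -0.93. The cause was not tested, apart from thresholds and filters, which admit more or fewer genes by construction. With 1 array per condition, no value has a replicate error. No paired analysis was possible because the samples are different chips with no replicate.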
